A study of Arabidopsis thaliana with 30 samples.

Results

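The transcripts described here rose early after cutting in the wild type and lay below their starting level by 24 h. They are 101 of the 36635 rows of a table of raw RNA-seq counts. The study measured explants of the hypocotyl, the embryonic stem, taken as whole tissue from seedlings grown in the dark for 7 days and then cut, with about 50 explants pooled in each biological replicate. One genotype was the wild type, WT of the Col-0 ecotype. The other was hsfa1abd-2, a mutant named for the A, B and D genes of the heat shock factor group HSFA1, in the Col-0 ecotype. Each genotype was sampled at 0, 0.5, 1, 3 and 24 h, with 3 libraries per group and 30 libraries in 10 groups. All groups carry the label wounded, those at 0 h included, and no uncut seedlings were analysed here, so the effects of cutting, of the hour of sampling and, at 24 h, of tissue age cannot be told apart. In explants of mixed cell types, fewer cells of a type and less RNA per cell cannot be told apart either.

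Cutting a plant stem sets off a burst of new transcription within minutes, and many of the transcripts that appear first are short-lived and decline again within hours. Over the following day the tissue near the cut turns to repair, regrowth and new cell identities. The HSFA1 proteins are class A heat shock factors, transcription factors best known as the activators that start the heat shock response in Arabidopsis thaliana, where they switch on chaperone genes and further heat shock factors.

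The rows of the table carry no gene identifiers, and no gene name was taken from their order. For this reason no gene name, location or sequence is given, the labelled tissue could not be checked against marker genes, and no library could be checked for its HSFA1 transcripts. Members are described by their values, and only 4 carry a number, which is the place of their row in the table. Total counts ran from 3164714 to 4296509 per library, apart from the WT 0.5 h replicate 1 library with 578179. The WT 0.5 h libraries took part in choosing the members. Choosing them again without the shallow library also gave 101 rows, of which 95 were the same. No pair of replicates agreed within sampling noise: chi-square over its degrees of freedom was 1.77 to 16.9. In WT it was 2.21 to 9.01. In the mutant it was 2.01 to 16.9 from 0 to 3 h and 1.77 to 2.49 at 24 h. Mutant 0 h replicate 1 stood at 16.9 against replicate 2 and 12.3 against replicate 3, which stood at 2.79 against each other.

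Members were chosen from WT libraries by level in CPM, the count scaled to a library total of 1000000, and by change from 0 h on the log2(1 + mean CPM) scale. A row qualified with a mean of at least 2 CPM at 0 h and 0.5 CPM at 24 h, a rise of at least 1 log2 unit at 0.5 or 1 h, and a 24 h change under -1. Of 16999 rows past both level limits, 1597 rose early and 2390 fell by 24 h. The 101 rows that did both were 6.32% of the early risers and 4.23% of the rows that fell, and all 101 passed the filter on low counts. Just inside the limits the lowest 0 h level was 2.32 CPM, the lowest 24 h level 0.516 CPM, the smallest early rise 1.01 and the smallest fall -1.02. Just outside lay rows with 0.452 CPM at 24 h, a rise of 0.999 and a fall of -0.99, and 14 rows missed on the 24 h level alone. No row could miss on the 0 h level alone, because the 24 h level and the fall together require over 2 CPM at 0 h.

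In WT the level of the median member at 0, 0.5, 1, 3 and 24 h was 20.9, 64.6, 51.0, 30.0 and 6.19 CPM. The WT values of 0, 0.5, 1 and 24 h chose the members, and those of 3 h set no limit. All of them are a description, with no test. All members together took 0.378% ± 0.0193 (SD, n = 3) of a library's counts at 0 h, between 1.25% and 1.38% in the 3 libraries of 0.5 h, and 1.33% ± 0.0319 at 1 h. Their share was 0.798% ± 0.0705 at 3 h and 0.102% ± 0.00363 at 24 h. The WT libraries of 0.5 and 1 h thus held the members at the highest share, and those of 24 h at the lowest.

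**Figure D1:**
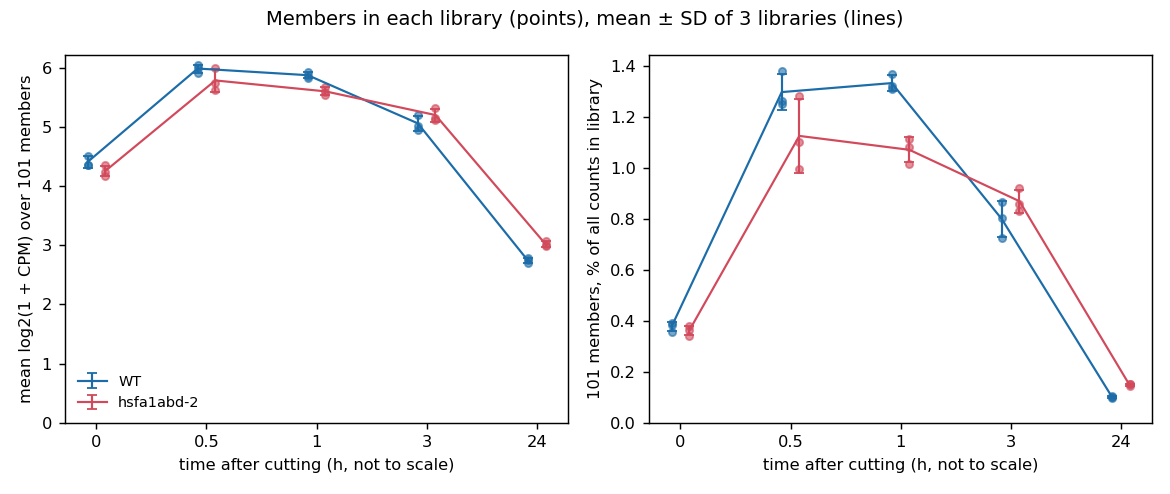
The 101 members in each library, as their mean log2(1 + CPM) on the left and as their summed share of all counts in percent on the right, against time after cutting with times evenly spaced. Points are libraries, lines and bars the mean ± SD of 3 libraries; the mutant share is 0.362% at 0 h, 1.12% at 0.5 h and 0.148% at 24 h.

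The members differed among themselves in when they rose and how long they stayed up in WT. A rise of at least 1 unit of log2(1 + mean CPM) was present at both 0.5 and 1 h in 52 members, at 0.5 h only in 26 and at 1 h only in 23. This scale understates the CPM fold of low rows. The highest WT level was reached at 0.5 h by 50 members, at 1 h by 40 and at 3 h by 11. Those peaking at 0.5 h started at a median of 16.1 CPM and those peaking at 1 h at 25.9 CPM, and their median log2(1 + CPM) changes at their own peak were 1.94 and 1.86. At 3 h, 36 members were still at least 1 such unit above 0 h, 36 were above it by less, and 29 were already below it. The member with the largest drop from peak to 24 h went in WT from 16.1 ± 0.627 CPM (SD, n = 3) at 0 h to 117 ± 9.85 CPM at 0.5 h and 0.617 ± 0.401 CPM at 24 h. The lowest starter began at 2.32 ± 1.05 CPM and reached 5.80 ± 1.06 CPM at 1 h, on 25 and 62 counts summed over 3 libraries.

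The hsfa1abd-2 libraries took no part in the choice, so the same rows could be tested there. Most members rose early and fell by 24 h in the mutant too. The level of the median member at the same 5 times was 17.0, 53.6, 46.3, 33.1 and 6.98 CPM. The members' summed share of counts was 0.362% ± 0.0186 (SD, n = 3) at 0 h, 1.12% ± 0.145 at 0.5 h and 1.07% ± 0.0487 at 1 h. It was still 0.869% ± 0.0451 at 3 h, and 0.148% ± 0.00394 remained after 24 h. The 3 mutant libraries of each of 0.5, 1 and 3 h all held a higher share than any mutant 0 h library, and the 3 of 24 h a lower one.

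At 0.5 h, the edgeR quasi-likelihood test (Benjamini-Hochberg adjusted over all tested rows) called 83 of 101 members higher than at 0 h in the mutant, against a background of 14.7% of all 18526 tested rows. The called members rose by 0.43 to 4.59 log2 units, with a median of 1.92. The log2 fold change was positive in 97 members and negative in 4, and its median over the members was 1.77, against -0.03 over all tested rows. In 82 members the 3 libraries of 0.5 h all lay above those of 0 h, which held for 14.2% of tested rows.

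At 1 h, 83 members were called, against a background of 35.0% in either direction. Of these, 82 were higher, by 0.66 to 4.24 log2 units, and 1 was lower, while the called rows of the whole table split into 3700 higher and 2788 lower. The median log2 fold change of the members was 1.65. In 81 members all 1 h libraries lay above all 0 h libraries, against 17.6% of tested rows.

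At 3 h, 72 members were called, against a background of 42.6% in either direction. Of these, 68 were still higher and 4 were lower, with log2 fold changes of -1.19 to -0.64 for the latter. The called rows of the whole table split into 4462 higher and 3436 lower. The median log2 fold change of the members was 1.11, and the 3 h libraries lay fully above those of 0 h in 65 members, against 20.1% of tested rows.

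At 24 h, 79 members were called lower than at 0 h in the mutant, against a background of 21.3%, with log2 fold changes of -4.51 to -0.56 and a median of -1.47. All 24 h libraries lay below all 0 h libraries in 85 members, against 27.8% of tested rows. A further 21 members were not called, with log2 fold changes of -1.64 to 0.27, and 1 was called higher, against a background of 26.6%. Counted from 1 h, a comparison without the 0 h libraries, 95 members were called lower at 24 h, against a background of 26.7%. All 101 had a negative log2 fold change in that comparison, with a median of -2.99.

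The early rise and the late fall came together in most members. In the mutant, 96 members were called higher at 0.5 or 1 h, against 23.0% of tested rows. Of these, 76 were also called lower at 24 h, which was so for 600 tested rows, a background of 3.24%. Both calls use the same mutant 0 h libraries. Of the other 25, 19 rose early without a 24 h call, 3 fell without a call of an early rise, and the rest did neither or were called above their start at 24 h.

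**Figure D2:**
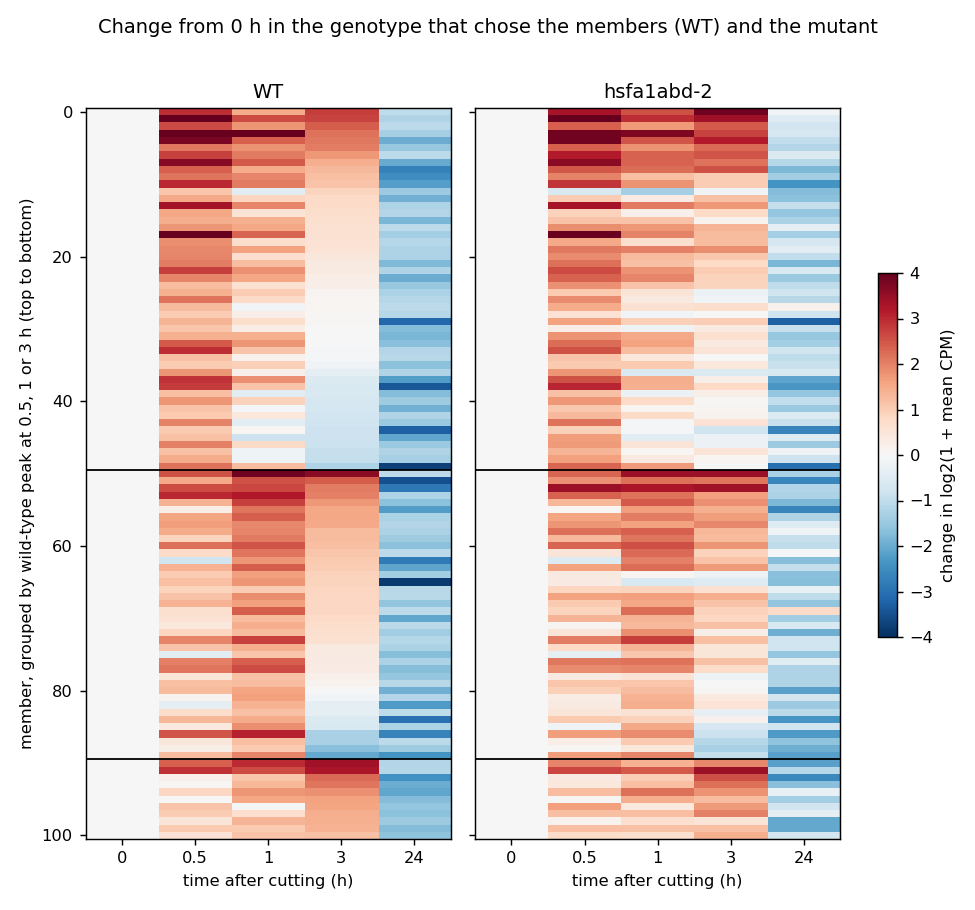
Change from 0 h in log2(1 + mean CPM) at each time for the 101 members, WT on the left and hsfa1abd-2 on the right, one line per member in the same order on both sides, grouped by the WT peak at 0.5, 1 or 3 h; colours stop at 4 log2 units in either direction. Most lines turn from red at 0.5 and 1 h to blue at 24 h on both sides, and the blue at 24 h is paler in the mutant, where the median change is -1.17 against -1.48 in WT.

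A pair of reference sets from the same WT libraries, rows that rose early without the fall and rows that fell without the rise, was read in the same mutant comparisons. Among 1496 rows that rose early without the fall, 78.9% were called higher in the mutant at 0.5 h, against 82.2% of the members. At 1 h the share was 92.8% in this set and 81.2% in the members. At 3 h this set and the members stood at 85.4% and 67.3%, and the median log2 fold changes were 1.67 and 1.11. Among 2278 tested rows that fell by 24 h without an early rise, 79.3% were called lower at 24 h in the mutant, against 78.2% of the members, and the median log2 fold changes were -1.17 and -1.27. From 1 h to 24 h, 94.1% of the members, 77.7% of the first set and 58.4% of the second were called lower. These shares are a description, and the differences between sets were not tested.

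**Figure D3:**
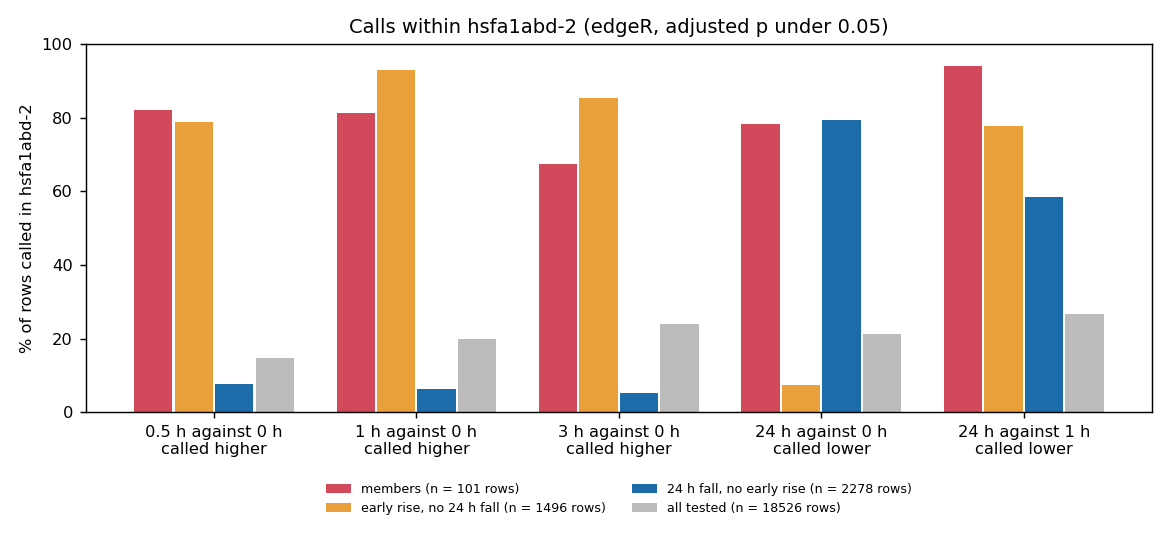
Percent of rows called by edgeR at an adjusted p under 0.05 within hsfa1abd-2, for the 101 members, the 1496 rows with the early rise and no fall, the 2278 rows with the fall and no early rise, and all 18526 tested rows. The members stand beside the first set at 0.5 h (82.2% and 78.9%) and below it at 1 h (81.2% and 92.8%). They stand beside the second set at 24 h (78.2% and 79.3%).

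The timing of the peak was largely shared by the genotypes. Of 50 members with their WT peak at 0.5 h, 44 had their highest mutant level at the same time, 5 at 3 h and 1 at 0 h. Of 40 with the WT peak at 1 h, 32 peaked at 1 h in the mutant, 6 at 0.5 h and 2 at 3 h. Of 11 with the WT peak at 3 h, 7 did so in the mutant, 3 peaked at 1 h and 1 at 0.5 h. Members raised by at least 1 log2(1 + CPM) unit in WT at 0.5 h only had mutant medians of 1.42 at 0.5 h and 0.36 at 1 h on the same scale. Those raised in WT at 1 h only had mutant medians of 0.36 at 0.5 h and 1.35 at 1 h. Of the 36 members still at least 1 unit above 0 h at 3 h in WT, 35 were called higher at 3 h in the mutant, and of the 29 already below 0 h in WT, 9 were. Of all 18526 tested rows, 4462 were called higher at 3 h, so the 9 of 29 lie near the background.

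Across the 101 members the WT and mutant changes correlated with r of 0.928, 0.850, 0.862 and 0.681 at 0.5, 1, 3 and 24 h. These are descriptions over rows that share their libraries and were chosen on the WT change. The mutant change was the more positive one in 46, 41, 76 and 80 members at these times. At 24 h the median difference between mutant and WT change was 0.46 log2 units. The mutant mean lay below WT at 0 h in most members, being higher in 31 of 101, and it was higher at 24 h in 61. WT libraries of 0, 0.5, 1 and 24 h set the limits that a member had to meet, so these comparisons between genotypes carry no test.

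The whole rule, applied to the mutant libraries, was met by 48 members, and 37 others met the levels and the rise but not the 24 h fall. A further 10 met the levels and the fall but not the rise. The rule chose 127 rows in the mutant, so the 48 shared rows were 47.5% of the WT list and 37.8% of the mutant list. The WT list had risen by medians of 1.40 in WT and 1.60 in the mutant at 0.5 h on the log2(1 + CPM) scale, and the mutant list by 1.39 in the mutant and 1.06 in WT. At 24 h the median change of the WT list was -1.48 in WT and -1.17 in the mutant, and that of the mutant list -1.53 in the mutant and -1.66 in WT.

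**Figure D4:**
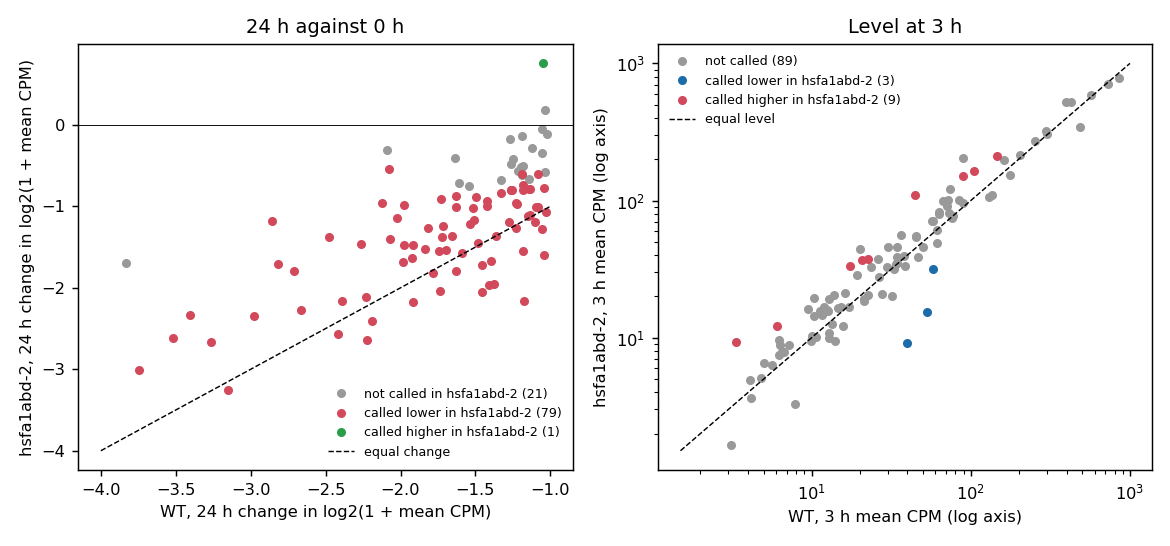
Left, the 24 h change from 0 h in log2(1 + mean CPM) of each member in WT (horizontal) and hsfa1abd-2 (vertical), coloured by the edgeR call within the mutant. Right, the 3 h mean CPM of each member on log axes, coloured by the call between genotypes; 80 members lie above the line of equal change on the left, and 12 are called on the right, 9 higher and 3 lower in the mutant.

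The 3 h libraries of WT set no limit of the rule, so the genotypes could be tested at that time. Most members did not differ detectably at 3 h, and more of the called ones were higher in the mutant. Of the 101, edgeR (quasi-likelihood, Benjamini-Hochberg adjusted) called 9 higher in hsfa1abd-2, or 8.91%, against a background of 1.04%, by 0.45 to 1.36 log2 units. It called 3 lower, or 2.97%, against a background of 0.955%, with log2 fold changes of -2.20 to -0.93. The rows that rose early without the fall had a similar share of lower calls, 3.28%, and 2.27% higher. For rows that fell without the rise these shares were 0.658% lower and 2.02% higher. The median over the 101 members was 0.10, against -0.01 over all tested rows, and 61 were positive. Mutant libraries lay fully above WT in 23 members, against 11.0% of tested rows, and fully below in 6, against 5.21%. In a fit of the compared libraries alone 2 were called higher, 1 of them among the 9, and the background fell to 0.336%. Leaving out WT 3 h replicate 1 also left 2, on a background of 0.235%. The count was 4 without WT 3 h replicate 2 (background 0.544%), 4 without mutant 3 h replicate 2 (0.447%), and 4 where mutant 3 h replicate 3 was left out, on a higher background of 1.35%. The 3 lower calls held in each of these fits. Among members chosen without the shallow library, 2 were called lower.

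Feature 20847 had the highest mean of the 0.5 and 1 h mutant changes among members eligible for a number. Its mutant libraries read 11.6, 6.03 and 7.17 CPM at 0 h, 180, 230 and 144 CPM at 0.5 h, 55.0, 69.6 and 88.1 CPM at 1 h, 88.6, 75.7 and 123 CPM at 3 h, and 6.58, 4.98 and 4.87 CPM at 24 h. All mutant libraries from 0.5 to 3 h stood above all those of 0 and 24 h, and the latter groups overlapped. The WT means at the 5 times were 13.0, 287, 83.9, 89.6 and 5.12 CPM. In edgeR's quasi-likelihood test the mutant rise at 0.5 h was 4.59 log2 units (approximate SE 0.246, adjusted p = 1.64e-14). The 24 h difference from 0 h was -0.55 (adjusted p = 0.193), so the call at 24 h that most members had was not made here.

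Feature 33206 came next by the same rule and stayed at its raised level until 3 h in the mutant. Its mutant libraries read 12.8, 5.45 and 10.3 CPM at 0 h, 131, 91.3 and 113 CPM at 0.5 h, 83.1, 95.3 and 121 CPM at 1 h, 88.6, 143 and 95.5 CPM at 3 h, and 2.92, 3.15 and 4.87 CPM at 24 h. The mutant groups from 0.5 to 3 h overlapped with each other and with no other group, and the 24 h libraries lay below all 0 h libraries. WT libraries at 3 h read 29.4, 57.3 and 46.7 CPM, all below the 3 of the mutant, and its WT mean at 24 h, 0.516 CPM, was the lowest of all members. The edgeR quasi-likelihood log2 fold changes in the mutant were 3.67 at 0.5 h (adjusted p = 4.21e-09), 3.60 at 1 h (adjusted p = 4.46e-09) and -1.35 at 24 h (adjusted p = 0.0289). At 3 h the mutant stood 1.21 log2 units above WT (approximate SE 0.273, adjusted p = 0.0178). That call was lost in the fit of the compared libraries alone (adjusted p = 0.081) and without WT 3 h replicate 1 (adjusted p = 0.134), WT 3 h replicate 3 (adjusted p = 0.0553) or mutant 3 h replicate 2 (adjusted p = 0.104), each from the same test.

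Feature 20446 was among the members that fell furthest in the mutant. Its libraries there read 27.5, 21.0 and 18.9 CPM at 0 h, 85.0, 77.8 and 51.1 CPM at 0.5 h, 41.4, 36.9 and 55.2 CPM at 1 h, 46.1, 45.8 and 44.8 CPM at 3 h, and 1.71, 1.31 and 1.35 CPM at 24 h. Every library of 0.5, 1 and 3 h was above, and every library of 24 h below, the 3 of 0 h. WT means were 28.9, 76.1, 47.5, 30.0 and 2.36 CPM in the same order of times. The mutant log2 fold changes were 1.79 at 0.5 h (adjusted p = 1.65e-08) and -3.86 at 24 h (approximate SE 0.345, adjusted p = 1.41e-10) in edgeR's quasi-likelihood test.

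Feature 15976 rose later and fell to the edge of detection in the mutant. Its mutant libraries read 8.20, 4.88 and 7.75 CPM at 0 h, 5.33, 10.9 and 5.97 CPM at 0.5 h, 21.2, 19.5 and 32.0 CPM at 1 h, and 27.7, 9.76 and 22.9 CPM at 3 h. At 24 h it had 0, 0 and 0.811 CPM. The 0.5 h libraries overlapped those of 0 h, the 1 and 3 h libraries lay above them, and the 24 h libraries lay below. Summed over 3 libraries it had 78 counts at 0 h and 3 at 24 h, a ratio of CPM levels of 0.0368 with a 95% counting interval of 0.00743 to 0.112. PCR reads are not independent molecules, so this interval covers counting error only. The edgeR quasi-likelihood log2 fold changes were 2.02 at 1 h (adjusted p = 1.80e-05) and -4.51 at 24 h (approximate SE 0.743, adjusted p = 1.25e-05). Without mutant 24 h replicate 3, which held all 3 counts, the fitted value was -7.48, which depends on the prior count. WT means were 10.2, 12.1, 48.3, 32.0 and 1.40 CPM at the 5 times.

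**Figure D5:**
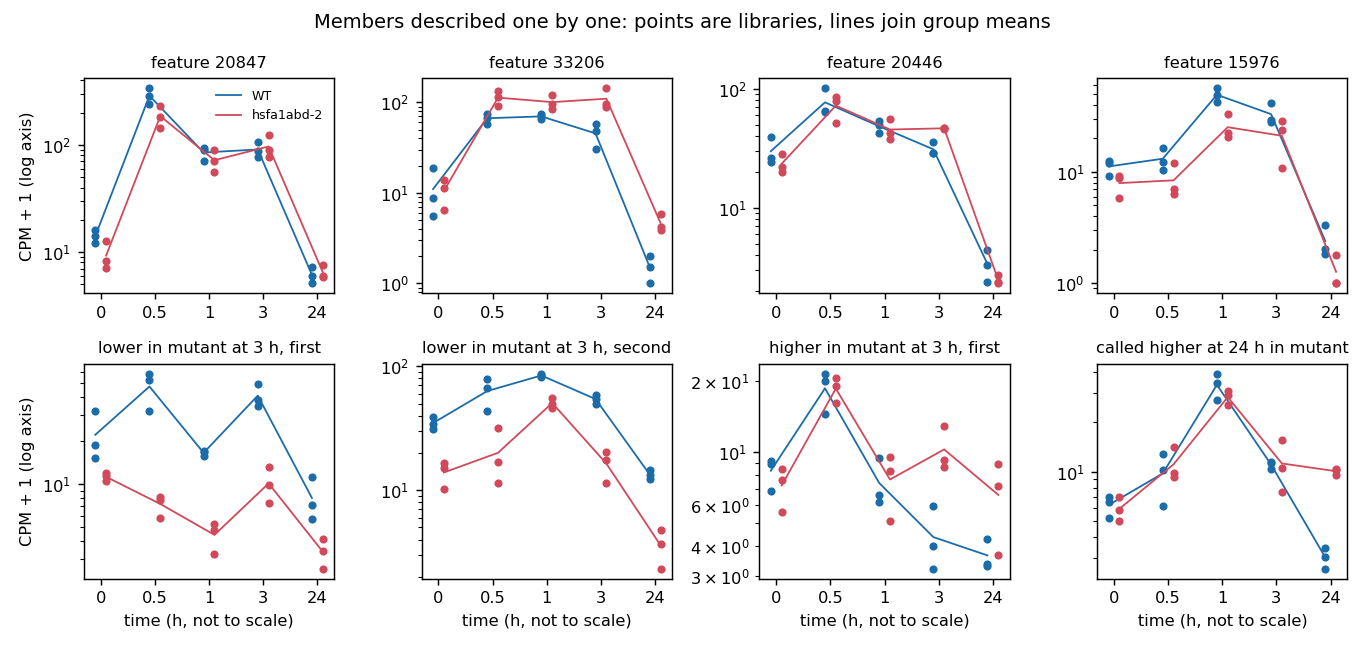
CPM + 1 on a log axis against time for 8 members, each point a library and each line joining the group means, WT in blue and hsfa1abd-2 in red. The member called lower in the mutant at 3 h first in order reads 9.10 CPM there against 40.0 CPM in WT, and the member in the last panel reads 9.06 CPM at 24 h in the mutant against 2.03 CPM in WT.

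The member with the lowest mutant level relative to WT at 3 h did not rise early in the mutant. Its 3 h libraries read 37.3, 34.0 and 48.7 CPM in WT and 12.1, 8.87 and 6.37 CPM in the mutant, with no overlap. The difference was -2.20 log2 units (approximate SE 0.268, adjusted p = 1.56e-06 in edgeR's quasi-likelihood test). Within the mutant it read 10.8, 10.3 and 9.47 CPM at 0 h, 6.81, 7.19 and 4.83 CPM at 0.5 h, and 3.79, 2.26 and 4.27 CPM at 1 h, each group below the one before it. It was the 1 member called lower at 1 h, by a log2 fold change of -1.34 (adjusted p = 0.00534 in the same test). In WT its means were 20.9, 46.4, 15.5, 40.0 and 7.00 CPM at the 5 times. Its WT libraries of 0.5 h read 57.1, 30.9 and 51.4 CPM, the first being the shallow library, on 33 counts. Without that library its WT rise falls short of the limit, and it would not be a member.

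The second of the members called lower in the mutant at 3 h did rise there, from a lower start. Its mutant libraries read 15.4, 9.19 and 14.1 CPM at 0 h, 54.7, 48.8 and 45.1 CPM at 1 h, 16.5, 10.4 and 19.4 CPM at 3 h and 2.68, 1.31 and 3.79 CPM at 24 h. WT libraries at 3 h read 48.3, 53.8 and 58.0 CPM, all above the mutant ones, and the difference was -1.86 log2 units (adjusted p = 3.62e-05 in edgeR's quasi-likelihood test). Its mutant rise at 1 h was 2.17 log2 units (adjusted p = 1.92e-07), a change from a 0 h mean of 12.9 CPM that stood at 33.8 CPM in WT.

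The largest 3 h difference in the other direction belonged to a weakly expressed member. Its 3 h libraries read 2.20, 4.89 and 3.02 CPM in WT and 7.68, 8.28 and 11.9 CPM in the mutant, with no overlap. The log2 fold change was 1.36 (approximate SE 0.327, adjusted p = 0.0188 in edgeR's quasi-likelihood test). On 41 and 97 counts summed over 3 libraries, the call was lost with the compared libraries alone (adjusted p = 0.0958) and without WT 3 h replicate 1 (adjusted p = 0.151), WT 3 h replicate 3 (adjusted p = 0.0891) or mutant 3 h replicate 3 (adjusted p = 0.0752).

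The 1 member called higher than its start at 24 h in the mutant read 4.82, 6.03 and 4.02 CPM at 0 h, 27.3 ± 2.68 CPM (SD, n = 3) at 1 h, and 8.53, 9.44 and 9.19 CPM at 24 h. The 24 h libraries lay between those of 0 and 1 h without overlap. Its 24 h log2 fold change against 0 h was 0.92 (approximate SE 0.266, adjusted p = 0.00498 in edgeR's quasi-likelihood test). In WT it went from 5.27 CPM at 0 h to 32.5 CPM at 1 h and 2.03 CPM at 24 h.

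The member with the highest WT level at 0 h also rose early and fell by 24 h in the mutant. Its 3 h mean lay above that of 0 h in the mutant and below it in WT. Its mutant libraries read 412, 382 and 356 CPM at 0 h, 802, 872 and 709 CPM at 0.5 h, 691, 799 and 865 CPM at 1 h, 491, 509 and 558 CPM at 3 h, and 195, 222 and 207 CPM at 24 h. The 0.5, 1 and 3 h libraries lay above, and the 24 h libraries below, those of 0 h. The mutant log2 fold changes were 1.18 at 0.5 h (adjusted p = 2.78e-10), 0.63 at 3 h (adjusted p = 2.30e-05) and -0.83 at 24 h (adjusted p = 2.57e-07) in edgeR's quasi-likelihood test. WT means were 466, 938, 902, 427 and 150.0 CPM in the same order of times, and the 3 h difference between genotypes was 0.21 (adjusted p = 0.41).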

How the data were processed

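RNA-seq libraries were prepared from total RNA with a stranded mRNA kit, per the labels' protocols. The submitters' processing notes name fastp, STAR and TAIR10, with no versions. How reads were counted, with which annotation and strand setting, is not given in the sources used here. Reads of paralogs, overlapping genes or antisense partners may therefore be split in ways that are not stated. The authors deposited 1 table of raw counts, not normalized, with no row identifiers.

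The members and all sets were chosen with earlier results of these data known. Members were found from CPM by column sums in WT, read out in hsfa1abd-2. All 30 libraries were fitted in edgeR 4.0.16 (R 4.3.3, limma 3.58.1) as 10 groups with filterByExpr (minimum count 10, minimum total 15), TMM and robust quasi-likelihood tests. Of 36635 rows, 18526 were tested, holding 99.8% of counts, and 10278 had no count. P-values were adjusted by Benjamini-Hochberg over all tested rows within each of 6 contrasts, with a threshold of 0.05. The biological coefficient of variation was 13.1%. SEs are approximate, the size of the log2 fold over the square root of F. The tests and the choice of rows were tested on simulated data. Replicates are labelled biological, and p-values measure the spread between these samples. A count of 3 equals 0.698 to 5.19 CPM.

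Rows are given by number for 2 that rose and 2 that fell. They had at least 5 CPM at 0 h in both genotypes and a mutant call without overlap. The first pair had the highest mean of the 0.5 and 1 h mutant changes, and the second the most negative 24 h mutant change. Other members are named by their place in an order, or as the single member of a call. Alternatives were DESeq2 1.42.0, other scaling, no filter, fewer libraries, a replicate block, and other limits for the choice.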

Additional observations from a re-analysis of the deposited data

Results flagged for a closer look

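In 5 of the members described one by one, every library of one genotype moved one way from its 0 h mean and every library of the other genotype the opposite way. The difference between the changes of the genotypes was not tested in these cases. The same pattern was met by 2 of all 101 members at 0.5 h and by 0 at 1 h. At 3 h 6 members met it, and at 24 h 1 did. The share of all tested rows with this pattern was not computed, so these counts have no background. At 3 h, the member with the highest WT level at 0 h stood 135.57 CPM above its 0 h mean in the mutant. Every WT library lay below the WT 0 h mean. The WT libraries of 0 h spanned 397 to 532 CPM, however, and enclosed those of 3 h, at 413, 417 and 450 CPM. At the same time the member with the largest WT drop from peak to 24 h stood 8.64 CPM above its 0 h mean in the mutant, while all WT libraries lay below theirs. Its 3 h level in the mutant was 0.84 log2 units above WT and not called (adjusted p = 0.123 in edgeR's quasi-likelihood test). The weakly expressed member with the largest 3 h excess in the mutant stood 3.05 CPM above its 0 h mean there and below it in WT. At 0.5 h, the member with the largest 3 h deficit in the mutant had changed by -3.94 CPM there. Every WT library lay above the WT 0 h mean, a rise that the choice of members required of the WT mean. The WT libraries of 0 and 0.5 h still overlapped, the highest of 0 h being 31.0 CPM and the lowest of 0.5 h 30.9 CPM. At 24 h, the 1 member called above its start in the mutant stood 4.10 CPM above its 0 h mean, and every WT library lay below its own, as the choice of members required of the WT mean.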

How the results depend on the processing

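Of the counts of calls, only the members higher in hsfa1abd-2 than WT at 3 h moved by over 1.5 times: 9 in the fit reported, 2 with the compared libraries only, and 2 to 11 when each of the 30 libraries was left out in turn; the cause was not tested. Early-rise and 24 h counts kept their size under DESeq2, other scalings, no filter and the mutant libraries alone. Members with both calls numbered 74 to 77 (67 to 79 with a library left out). Their background was computed for the reported fit only, at 3.24% of tested rows. Members called lower at 24 h numbered 78 to 80, against 16.45% to 22.91% of tested rows. With a library left out they numbered 70 to 82, against 18.29% to 25.28%. The lowest count came without mutant 0 h replicate 1, against 18.97%. Samples of the same replicate number correlated with r of -0.18 to 0.21 over the contrasts. Between genotypes at 3 h these values were 0.044, 0.214 and 0.180, against -0.23 to 0.04 for different numbers. Whether the numbers pair the samples was not tested. With the number as a replicate block, 81 members were called higher at 0.5 h, 82 at 1 h and 68 at 3 h, against 14.4%, 19.7% and 23.9% of tested rows, 77 were called lower at 24 h, against 21.02%, and 73 had both calls. Column sums without TMM shifted the median of all tested rows by -0.13, -0.23 and -0.19 log2 units at 0.5, 1 and 3 h. With them 79 members were still called higher at 0.5 h, against 12.31% of tested rows. Limits of 1.5-fold chose 359 rows, all 101 members among them. Choosing the members without the shallow library, an alternative added after seeing the data, left 77 with both calls and 79 lower at 24 h. These were read in the reported fit, with backgrounds of 3.24% and 21.3%. TMM-scaled CPM chose 108 rows, sharing 87, and a left-out WT library gave 98 to 113. Members with few counts at 24 h limit the precision of their folds, and a call that was missed does not show equal levels.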
